A study of Homo sapiens with 6 samples.

Results

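The genes described here are 36 genes of glucose use and of the response to low oxygen in HT29 cells, a human colorectal adenocarcinoma cell line: carriers of glucose and lactate, the enzymes that turn glucose into pyruvate and lactate, targets of the hypoxia-inducible factors, the enzymes that sense oxygen and the oxygen-regulated subunits HIF1A and EPAS1. They were taken by name, as the rows of the expression tables whose Ensembl identifier carries one of the 36 symbols in gencode release 44, out of 60676 genes listed, and every symbol matched 1 row. RNA was sequenced from untreated HT29 cells, from cells kept without histidine and from cells kept without tryptophan, each for 48 h and each as 2 libraries, 6 libraries in all. The label of every library gives the cells as wild type, with no other agent or allele. The histidine-free medium was made on an RPMI 1640 base and the tryptophan-free medium on a DMEM F-12 base, both with dialyzed serum, the line is otherwise grown in DMEM with serum, and the medium of the untreated libraries is not described for this assay, so base medium and missing amino acid cannot be told apart. Nothing in the labels says that the 2 libraries of a group came from separate cultures. The p-values below therefore rest on the spread between these libraries, which may be technical. The test also drew the spread of each gene towards that of genes at a similar level. A p-value or standard error is thus not set by the gene's own libraries alone. Because the RNA is from bulk cultures, fewer cells that express a gene and less of its RNA per cell cannot be told apart.

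Glycolysis splits glucose into pyruvate in the cytosol, and lactate dehydrogenase then turns pyruvate into lactate, which leaves the cell through monocarboxylate carriers; many tumour cells run this route even with oxygen at hand. In oxygen, prolyl hydroxylases of the EGLN family mark the HIF alpha subunits for destruction through the VHL ubiquitin ligase. When oxygen is short the subunits escape, pair with ARNT and bind short DNA motifs near genes for glucose uptake, glycolysis, angiogenesis and the removal of mitochondria. HIF activity is set largely at the level of the protein, which RNA counts do not measure.

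The libraries held 46390819 to 64388876 reads on genes, and the values printed are normalized counts, reads divided by a size factor of the library, on 1 scale for all 6 libraries. The colon epithelial genes KRT8 and EPCAM were high in every library, at 186625 to 340439 and at 26253 to 31026 normalized counts. Of 8 epithelial markers 4 rose and 4 fell without histidine, where the test described below called 39.1% of all genes higher and 38.2% lower. Without tryptophan 5 rose and 1 fell, against 36.1% and 34.8% of all genes. KRT20, a keratin of differentiated epithelium, rose from 10264 and 10759 to 34599 and 35062 without histidine and 55379 and 54901 without tryptophan, while CEACAM5, a cell surface glycoprotein, lay at 497 and 540.1 in untreated cells, 66.9 and 105 without histidine and 7952 and 7856 without tryptophan, and CDX2, an intestinal transcription factor, at 457 to 469, 172 to 182 and 365 to 423. The summed level of the 8 was 375095 and 399207, then 508204 and 534492, then 549405 and 547186. Of 10 markers of mast cells, leukocytes, fibroblasts and endothelium, KIT, CPA3 and TPSAB1 were at 0, 4 had at most 3 reads in each library, and the list summed to 113 to 122 normalized counts in untreated cells, 80.4 to 87.5 without histidine and 82.2 to 88.8 without tryptophan. Within it the endothelial gene VWF rose from 7.65 and 3.98 to 42.5 and 40.7 without histidine, and PECAM1 and COL1A1 fell there. The part of these markers in the results below was not tested.

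The core of the DNA motif bound by HIF is ACGTG or GCGTG, and both strands of a window from 250 bases before to 50 bases after each RefSeq transcription start (GRCh38.p14) were searched for it; CACGTG holds the first form on both strands. A window was at hand for 32 members, and 29 of them (90.6%) had the core in at least 1 window, against 52.4% of the 27305 genes with a window. Members had more windows a gene, and counted by window the share was 40 of 60 (66.7%), against 48.4% of all 35116 windows. The genes compared were not matched to the members in base composition or gene type, and the difference was not tested. The stretches below are shown because they hold the core in members that rose in both depletions (ADM, BNIP3, HK2, PFKFB3, ANKRD37, EPAS1) and also in members that fell in 1 or both (LDHA, PGK1, GAPDH). Each is written 5′ to 3′ on the strand of the gene, upstream of the start, with every match to the core on either strand in capitals.
ADM, chr11:10304948-10304997, plus strand: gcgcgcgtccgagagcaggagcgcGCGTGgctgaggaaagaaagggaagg
BNIP3, chr10:131982019-131982068, minus strand: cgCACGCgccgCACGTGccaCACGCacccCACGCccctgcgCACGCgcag
HK2, chr2:74834057-74834101, plus strand: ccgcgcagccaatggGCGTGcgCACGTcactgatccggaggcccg
PFKFB3, chr10:6202802-6202851, plus strand: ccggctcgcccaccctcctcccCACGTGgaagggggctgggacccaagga
ANKRD37, chr4:185396671-185396715, plus strand: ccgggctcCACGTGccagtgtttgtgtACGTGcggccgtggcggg
EPAS1, chr2:46297267-46297311, plus strand: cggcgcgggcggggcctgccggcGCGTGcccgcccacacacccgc
LDHA, chr11:18394463-18394507, plus strand: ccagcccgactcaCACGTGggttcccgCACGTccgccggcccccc
PGK1, chrX:78104028-78104077, plus strand: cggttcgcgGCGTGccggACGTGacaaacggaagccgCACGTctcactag
GAPDH, chr12:6535159-6535208, plus strand: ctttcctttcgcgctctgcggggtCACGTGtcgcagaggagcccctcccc
The BNIP3 stretch held 6 matches in 50 bases, those of ANKRD37, LDHA and PGK1 held 3, and those of ADM and EPAS1 held 1. A match is a run of letters and not a measured binding site.

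After histidine depletion, 12 of the 14 hypoxia targets, sensors and HIF subunits rose, ADM most of all, and 1 fell, while 8 of the 21 carriers and enzymes rose and 10 fell. The share of carriers and enzymes that rose (38.1%) was near that of all genes (39.1%), and 47.6% of them fell. Of the 35 members with enough counts to test, 20 rose and 11 fell at an adjusted p under 0.05 in limma, a linear model fitted to all genes, and 4 did not pass. The depletion moved much of the transcriptome, and the same test called 39.1% of all 18288 genes higher and 38.2% lower. Of the members 57.1% rose and 31.4% fell. The second share was near that background, and neither difference from it was tested. The calls of ANKRD37, ENO1 and PGK1 were lost under some alternatives, as given below. At a change of at least 2-fold, 7 members rose and 4 fell, against 16.4% and 16.1% of all genes. The median log2 fold change of the members was 0.43, against 0.010 for all genes tested. A value after ± is the standard error of a log2 fold change on log2(normalized count + 1), a scale that understates changes of genes with low counts.

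After tryptophan depletion the members divided by role: 14 of 21 carriers and enzymes fell, while 12 of 14 hypoxia targets, sensors and HIF subunits rose and none of them fell. The rises of BNIP3, ANKRD37, EGLN3 and HIF1A and the falls of ALDOC and PKM were not called under some alternatives, as given below. Over the 35 members, 16 rose, 14 fell and 5 did not pass. That was 45.7% higher and 40.0% lower, against 36.1% of 17960 genes higher and 34.8% lower, and neither difference was tested. At least 2-fold, 6 rose and 1 fell (17.1% and 2.86%), against 10.0% and 10.4% of all genes. The median log2 fold change was −0.054, against 0.013 for all genes.

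**Figure D1:**
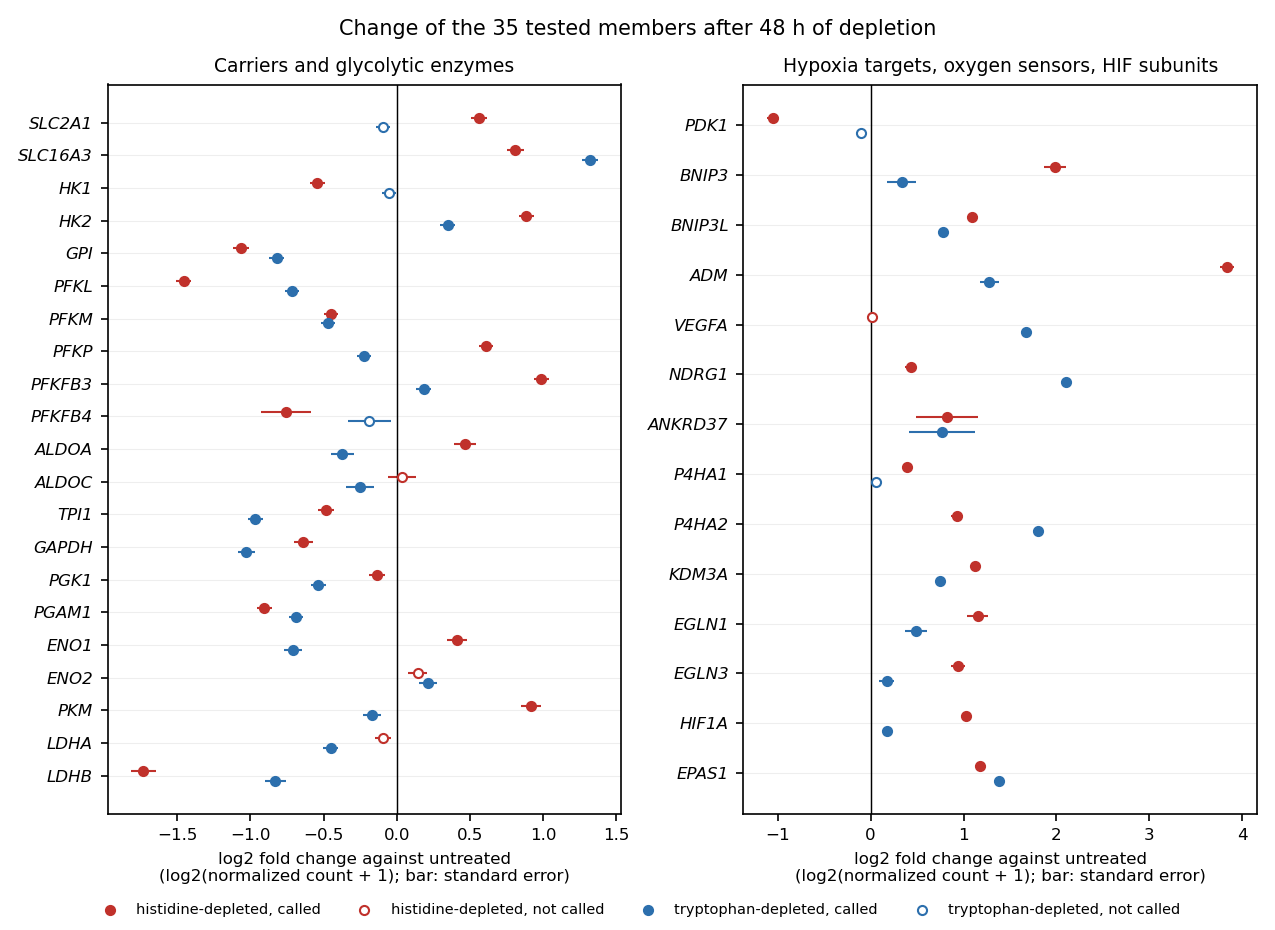
Log2 fold change of each of the 35 tested members against untreated cells, on log2(normalized count + 1), with bars for the standard error from limma; red is histidine depletion and blue tryptophan depletion, and filled points passed the test at an adjusted p under 0.05. In the left panel (21 carriers and enzymes) the blue points lie mostly left of 0, and in the right panel (14 hypoxia genes) points of both colours lie mostly right of it, with ADM farthest at 3.83.

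Among the carriers, SLC2A1, the basal glucose transporter, rose without histidine and not without tryptophan. Its normalized counts were 22677 and 24252 in the untreated libraries, 34186 and 34772 without histidine and 22133 and 22021 without tryptophan. Both histidine-depleted libraries stood above all others, by 1.48-fold against untreated (log2 fold change 0.56 ± 0.055, limma adjusted p = 1.5e-09), and the change was 0.28 under quantile normalization. The tryptophan-depleted libraries lay just under the untreated ones and did not pass (log2 fold change −0.09 ± 0.050, adjusted p = 0.082), though they passed as lower in edgeR and DESeq2 on the recovered reads (adjusted p = 0.0069 and 0.015), under quantile normalization (log2 fold change −0.18, adjusted p = 6.9e-05) and without untreated replicate 1 (log2 fold change −0.14, adjusted p = 5.8e-06). Without untreated replicate 2 the change was −0.05 (adjusted p = 0.17). The direct comparison of the depletions put SLC2A1 higher without histidine (log2 difference 0.64 ± 0.041, adjusted p = 1.6e-10). SLC2A3, a high-affinity glucose transporter, had 0 reads in every library, which allows at most 3 reads in each, and was not tested. Its 3 pseudogenes held 11 reads over the 6 libraries, and how reads that map to several genes were counted is not known.

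SLC16A3, the lactate exporter of glycolytic cells, rose in both depletions and more without tryptophan. It lay at 1284 and 1382 in untreated cells, 2294 and 2351 without histidine and 3328 and 3367 without tryptophan. The 3 groups did not overlap, and the log2 fold changes were 0.81 ± 0.059 (adjusted p = 6.0e-12) and 1.32 ± 0.053 (adjusted p = 1.9e-51), with a log2 difference of −0.53 ± 0.048 between the depletions (adjusted p = 2.1e-08).

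The hexokinases, which trap glucose in the cell as glucose 6-phosphate, changed in opposite directions without histidine. HK2, the inducible form, read 2939 and 3081 in untreated cells, 5695 and 5369 without histidine and 3822 and 3872 without tryptophan, with both depletions above untreated and histidine depletion highest (log2 fold changes 0.89 ± 0.053, adjusted p = 1.3e-13, and 0.35 ± 0.049, adjusted p = 2.0e-10). HK1, the housekeeping form, read 7495 and 7803 in untreated cells, 5130.1 and 5297 without histidine and 7486 and 7324 without tryptophan. It fell in the histidine-depleted libraries (log2 fold change −0.54 ± 0.050, adjusted p = 4.9e-10), which also lay below the tryptophan-depleted ones (log2 difference −0.51 ± 0.040, adjusted p = 2.7e-09). The tryptophan-depleted libraries lay just below the untreated ones and did not pass (log2 fold change −0.05 ± 0.047, adjusted p = 0.30), though they passed as lower under quantile normalization (log2 fold change −0.13, adjusted p = 0.0020) and without untreated replicate 1 (−0.08, adjusted p = 0.030). Without untreated replicate 2 the change was −0.02 (adjusted p = 0.55).

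At the next steps, isomerization and the committed phosphorylation, most genes fell. GPI, the isomerase, fell from 33590.2 and 33748 to 15349 and 16619.6 without histidine and to 19309 and 19012 without tryptophan, a 2.09-fold and a 1.77-fold decrease (adjusted p = 5.5e-15 and 5.9e-33). The 3 phosphofructokinases, which carry out the committed step, each followed a course of their own. PFKL, the liver form, read 5014 and 5301 in untreated cells, 1821 and 1912 without histidine and 3185 and 3128 without tryptophan, so that the groups were separate and histidine depletion lowest (log2 fold changes −1.46 ± 0.054 and −0.72 ± 0.048, adjusted p = 1.2e-17 and 1.8e-29). PFKM, the muscle form, fell in both, from 6727 and 6633 to 4873 and 4858 without histidine and 4790.2 and 4916 without tryptophan, with a log2 difference between the depletions of 0.00 ± 0.039 (adjusted p = 0.93). Under quantile normalization that difference passed as lower without histidine (−0.095, adjusted p = 0.024). PFKP, the platelet form, rose from 7343 and 7680.5 to 11232 and 11538 without histidine and fell to 6460.2 and 6461 without tryptophan. Its 6 libraries fell into 3 separate pairs with the untreated pair in the middle (log2 fold changes 0.61 ± 0.050 and −0.22 ± 0.047, adjusted p = 5.9e-11 and 8.2e-06).

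PFKFB3 and PFKFB4 make and break down the regulatory fructose bisphosphate that activates phosphofructokinase, and PFKFB3 has by far the greater kinase activity. PFKFB3 rose 1.98-fold without histidine, from 2233 and 2177 to 4346 and 4339.6 (log2 fold change 0.99 ± 0.052, adjusted p = 1.0e-14). Without tryptophan it reached 2482 and 2560.2, a log2 fold change of 0.19 ± 0.052 (adjusted p = 0.00081) that was not called without tryptophan-depleted replicate 2 (adjusted p = 0.079). PFKFB4 was much lower and fell without histidine, from 138 and 135 to 69.6 and 91.6 (log2 fold change −0.76 ± 0.17, adjusted p = 0.00027), against 124 and 117 without tryptophan (log2 fold change −0.19 ± 0.15, adjusted p = 0.26). The depletions differed in PFKFB4 (log2 difference −0.59 ± 0.16, adjusted p = 0.0032), though not without histidine-depleted replicate 1 (adjusted p = 0.055).

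Of the aldolases, which split the sugar into trioses, ALDOA was higher without histidine and lower without tryptophan. It read 633 and 715 in untreated cells, 909.8 and 938 without histidine and 516 and 527 without tryptophan, with log2 fold changes of 0.47 ± 0.075 (adjusted p = 5.1e-06) and −0.37 ± 0.078 (adjusted p = 8.7e-06), the second of which was −0.24 under quantile normalization. ALDOA shares 42.8% of its exonic bases with another gene on the same strand, ENSG00000285043, which had 12 to 64 reads, and how the counting treated reads common to both is not known, so its level is uncertain. The brain form ALDOC read 349 and 387 in untreated cells, 358 and 392 without histidine and 308 and 311 without tryptophan. Its untreated and histidine-depleted libraries overlapped (log2 fold change 0.04 ± 0.097, adjusted p = 0.74), with a change that passed as higher under quantile normalization (0.25, adjusted p = 0.026). Its fall without tryptophan (log2 fold change −0.25 ± 0.097, adjusted p = 0.016) was not called when untreated replicate 2 or either tryptophan-depleted library was left out (adjusted p = 0.056 to 0.13), in DESeq2 (0.11) or under quantile normalization (log2 fold change −0.15, adjusted p = 0.13). Triose phosphate isomerase, TPI1, was among the members that fell most without tryptophan, from 41729 and 43001 to 21874 and 21720.5 (log2 fold change −0.97 ± 0.052, adjusted p = 1.9e-38), with the histidine-depleted libraries in between at 29300.3 and 30892 (log2 fold change −0.48 ± 0.056, adjusted p = 2.9e-08).

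Further down the pathway, GAPDH, PGK1 and PGAM1, the enzymes between the triose and enolase steps, fell in both depletions. GAPDH, often used as a loading control, read 99404 and 104601 in untreated cells, 64087 and 66109 without histidine and 50701 and 49851 without tryptophan. Every depleted library lay below every untreated one, by 1.56-fold and 2.04-fold (log2 fold changes −0.64 ± 0.065 and −1.03 ± 0.061, adjusted p = 2.8e-09 and 2.1e-34). GAPDH has 65 pseudogenes of its name, whose reads came to 1.79% of its own. PGAM1 fell more without histidine, from 6374 and 6843 to 3434 and 3577 without histidine and 4165 and 4088 without tryptophan (log2 fold changes −0.90 ± 0.052 and −0.69 ± 0.047, adjusted p = 7.3e-14 and 1.5e-28). PGK1, which makes the first ATP of the pathway, fell from 41061 and 42737 to 28855 and 29270.2 without tryptophan (log2 fold change −0.53 ± 0.053, adjusted p = 1.2e-17). Its smaller decrease without histidine, to 37269 and 38515 (log2 fold change −0.14 ± 0.057, adjusted p = 0.033), was not called when either histidine-depleted library was left out (log2 fold changes −0.16 without replicate 2 and −0.12 without replicate 1, adjusted p = 0.29 and 0.445).

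ENO1 and PKM, an enolase and a pyruvate kinase of the last steps before pyruvate, rose without histidine. ENO1 read 99814 and 102556 in untreated cells, 132082 and 135226 without histidine and 61497 and 62781 without tryptophan. The untreated pair lay between the depletions, the log2 fold changes were 0.41 ± 0.069 (adjusted p = 8.5e-06) and −0.71 ± 0.062 (adjusted p = 5.1e-21), and the rise kept its size but was not called without histidine-depleted replicate 2 (log2 fold change 0.40, adjusted p = 0.063). PKM, pyruvate kinase of muscle and tumours, rose 1.89-fold without histidine, from 87103 and 89268 to 164533 and 166997 (log2 fold change 0.92 ± 0.069, adjusted p = 1.2e-11). Without tryptophan PKM lay slightly lower, at 78844 and 79047 (log2 fold change −0.17 ± 0.063, adjusted p = 0.013), a change of like size that was not called when either tryptophan-depleted library was left out (log2 fold changes −0.16 and −0.17, adjusted p = 0.376 and 0.33). ENO2, the neuronal enolase, was low throughout, at 1067 to 1313. Its change passed without tryptophan (log2 fold change 0.21 ± 0.061, adjusted p = 0.0010), but was 0.14 without untreated replicate 2. Without histidine it did not pass (0.14 ± 0.066, adjusted p = 0.054) and was 0.07 without untreated replicate 2 (adjusted p = 0.34), though it passed without untreated replicate 1 (0.21, adjusted p = 0.0088), under quantile normalization (0.25, adjusted p = 0.0069) and, narrowly, with a pseudocount of 8, a minimum mean of 50 or all 6 libraries scaled together (adjusted p = 0.048 to 0.0498).

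The lactate dehydrogenase subunits, LDHA, which favours lactate formation, and LDHB, which favours its use, differed in which depletion lowered them most. LDHA read 39017 and 39789 in untreated cells, 36666 and 36808 without histidine and 28769.9 and 29170.4 without tryptophan. It fell without tryptophan (log2 fold change −0.45 ± 0.052, adjusted p = 6.3e-14), while the histidine-depleted libraries lay slightly below the untreated ones and did not pass (log2 fold change −0.09 ± 0.055, adjusted p = 0.13). That small decrease did pass in edgeR and DESeq2 on the recovered reads (adjusted p = 0.0097 and 0.013). It also passed in limma with all 6 libraries scaled together (log2 fold change −0.10, adjusted p = 0.026). The change was −0.11 without untreated replicate 1 and −0.41 under quantile normalization (adjusted p = 4.9e-07). LDHB (ENSG00000111716, chr12:21635342-21757857, minus strand) fell from 873 and 936 to 261 and 279 without histidine and to 525 and 497 without tryptophan, with no overlap of the 3 groups. Its 3.32-fold decrease without histidine was the largest fall among the members there (log2 fold change −1.73 ± 0.085, adjusted p = 2.9e-15), and the decrease without tryptophan was 1.78-fold (adjusted p = 1.2e-20). LDHB shares 33.4% of its exonic bases with a gene on the same strand that had at most 2 reads in a library, so its level is uncertain. Quantile normalization, which forces the libraries to the same distribution, moved several strongly expressed members after histidine depletion without changing their direction or call: PFKP and ENO1 to log2 fold changes of 0.37 and 0.24, TPI1 and PGK1 to −0.80 and −0.47.

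**Figure D2:**
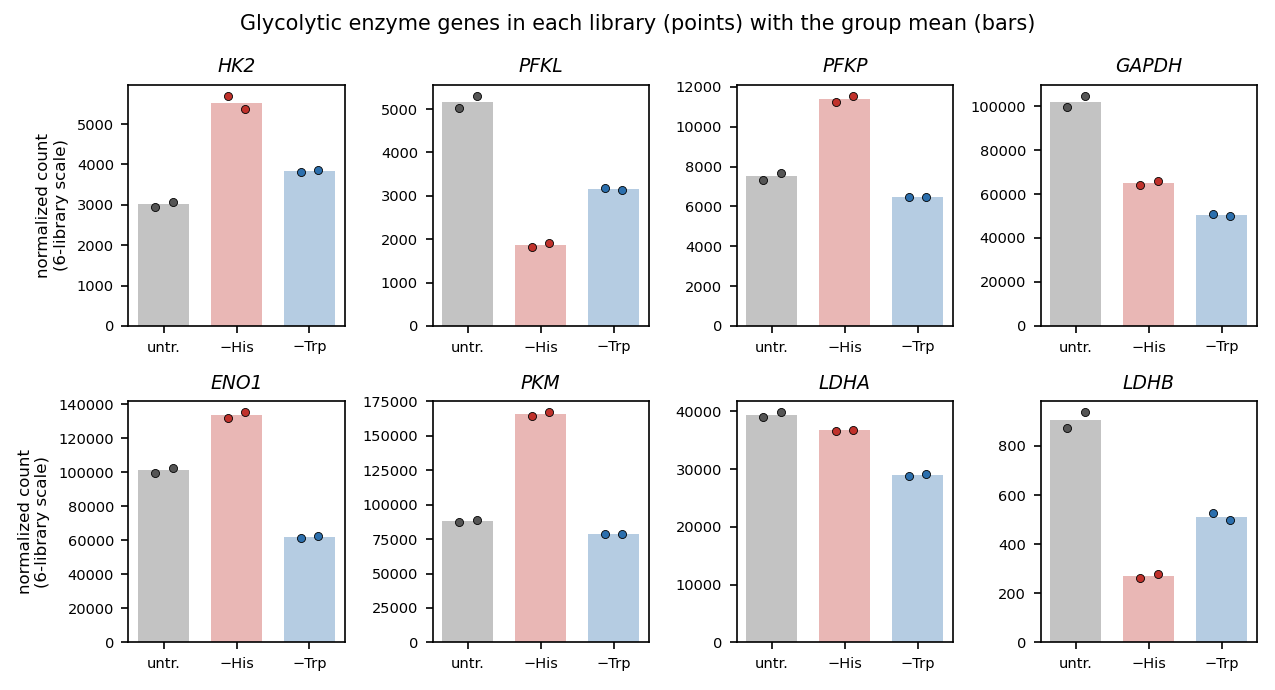
Normalized counts of 8 glycolytic enzyme genes in each library, on 1 scale for the 6 libraries; points are the 2 libraries of a group and bars their mean, from 0. PFKP, ENO1 and PKM are highest without histidine and lowest without tryptophan, GAPDH and LDHA are lowest without tryptophan, and PFKL and LDHB are lowest without histidine.

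Summed over the 19 glycolytic enzyme genes among the members, reads came to 0.953% of each untreated library, to 0.891% and 0.906% of the histidine-depleted libraries and to 0.598% of each tryptophan-depleted library. Within that sum the balance changed. PKM made up 18.0% and 17.9% of it in untreated cells, 31.7% and 31.4% without histidine and 24.3% and 24.2% without tryptophan. GAPDH went from 20.6% and 21.0% to 12.4% in both histidine-depleted libraries and to 15.6% and 15.3% without tryptophan. These shares are of reads and rise with the length of a gene as well as its RNA.

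The mitochondrial targets of hypoxia did not move as a set. PDK1, the kinase that shuts pyruvate dehydrogenase and keeps pyruvate out of the mitochondrion, read 1537 and 1498 in untreated cells, 707 and 747 without histidine and 1444 and 1400.0 without tryptophan. It fell 2.07-fold without histidine (log2 fold change −1.05 ± 0.065, adjusted p = 2.8e-13), the only decrease in that comparison among the 14 hypoxia genes, and did not pass without tryptophan (log2 fold change −0.10 ± 0.057, adjusted p = 0.11), where leaving out untreated replicate 2 gave a pass (−0.12, adjusted p = 0.048) and quantile normalization a change of −0.05 (adjusted p = 0.34). BNIP3 and BNIP3L encode receptors that tag mitochondria for removal by autophagy. BNIP3 read 109 and 106 in untreated cells, 455 and 399 without histidine and 132 and 142 without tryptophan, and rose 3.95-fold without histidine (log2 fold change 1.98 ± 0.12, adjusted p = 1.6e-13). Its rise without tryptophan (log2 fold change 0.34 ± 0.15, adjusted p = 0.044) was not called when any 1 of the 4 libraries was left out (adjusted p = 0.052 to 0.21) and in DESeq2 (adjusted p = 0.23). BNIP3 has 44 pseudogenes of its name, and their reads came to 24.5% of its own, so reads may be split between copies. BNIP3L rose in both, from 1419.8 and 1582 to 3152 and 3213 without histidine and 2607 and 2568 without tryptophan, with no overlap between groups (log2 fold changes 1.09 ± 0.059 and 0.78 ± 0.054, adjusted p = 1.9e-14 and 2.6e-28).

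ADM (ENSG00000148926, chr11:10305073-10307397, plus strand), the vasodilator peptide adrenomedullin, rose without histidine by more than any other member changed in either depletion. It read 193 and 192 in untreated cells, 2714 and 2776 without histidine and 451 and 489.9 without tryptophan. The 3 groups lay far apart, with a 14.3-fold rise without histidine (log2 fold change 3.83 ± 0.072, adjusted p = 4.8e-23) and a 2.42-fold rise without tryptophan (log2 fold change 1.28 ± 0.10, adjusted p = 1.3e-23). The direct comparison gave a log2 difference of 2.54 ± 0.070 in favour of histidine depletion (adjusted p = 1.6e-15).

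VEGFA and NDRG1 had the opposite order of the depletions. VEGFA (ENSG00000112715, chr6:43770184-43786487, plus strand), the main angiogenic growth factor, read 10802 and 9606 in untreated cells, 10383 and 10159.6 without histidine and 31910.4 and 33184 without tryptophan. It rose 3.18-fold without tryptophan (log2 fold change 1.67 ± 0.050, adjusted p = 2.1e-66). The histidine-depleted libraries lay inside the range of the untreated ones, with a log2 fold change of 0.02 ± 0.055 (adjusted p = 0.74) that became 0.10 without untreated replicate 1 (adjusted p = 0.027), −0.06 without untreated replicate 2 (adjusted p = 0.17) and −0.23 under quantile normalization (adjusted p = 0.0097). NDRG1, a stress-responsive gene linked to differentiation and metastasis, read 4051 and 4469.8 in untreated cells, 5343 and 6108 without histidine and 18231 and 18472 without tryptophan. Its 4.29-fold rise without tryptophan (log2 fold change 2.10 ± 0.047, adjusted p = 3.3e-81) was the largest among the members there, and histidine depletion raised it 1.35-fold (log2 fold change 0.43 ± 0.060, adjusted p = 5.8e-07), or by 0.27 on the log2 scale under quantile normalization. The log2 differences between the depletions were −1.66 ± 0.048 for VEGFA and −1.68 ± 0.056 for NDRG1 (adjusted p = 3.5e-15 and 1.9e-14).

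ANKRD37, a small ankyrin repeat protein, had 130 reads over all 6 libraries and read 13.1 and 14.9 in untreated cells, 22.6 and 28.5 without histidine and 24.5 and 24.7 without tryptophan. The depleted libraries lay above the untreated ones (log2 fold changes 0.82 ± 0.34 and 0.77 ± 0.36, adjusted p = 0.030 and 0.048). Neither call held in DESeq2 (adjusted p = 0.21 and 0.25), without untreated replicate 1 (0.080 and 0.12), or, respectively, without histidine-depleted replicate 2 (0.19) and without any 1 of the libraries on the tryptophan side (0.055 to 0.165). The gene also shares 40.3% of its exonic bases with UFSP2 on the other strand, which had 363 to 612 reads.

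The collagen prolyl hydroxylase subunits P4HA1 and P4HA2, which prepare collagen chains for folding and need oxygen to act, rose to different degrees. P4HA2 read 1184 and 1224 in untreated cells, 2164 and 2402 without histidine and 4235 and 4186 without tryptophan. The 3 groups were separate, and the rises against untreated were 1.90-fold and 3.48-fold (log2 fold changes 0.93 ± 0.062 and 1.80 ± 0.052, adjusted p = 9.8e-13 and 7.5e-68). P4HA1 rose without histidine, from 2217 and 2163 to 2854 and 2854 (log2 fold change 0.39 ± 0.053, adjusted p = 4.0e-07), and read 2325 and 2248 without tryptophan (adjusted p = 0.35), with a log2 difference of 0.32 ± 0.045 between the depletions (adjusted p = 4.2e-06). KDM3A, a histone H3 lysine demethylase that also uses oxygen, rose from 2832 and 2768 to 6160.0 and 5928 without histidine and 4645 and 4826 without tryptophan. Both rises passed (log2 fold changes 1.12 ± 0.051 and 0.75 ± 0.049, adjusted p = 6.7e-16 and 7.1e-31).

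All 4 oxygen sensor and HIF subunit genes were called higher in both depletions, against 39.1% of all genes without histidine and 36.1% without tryptophan. Without histidine each rose by about 1 on the log2 scale. The calls of HIF1A and EGLN3 without tryptophan were lost under some alternatives, as given below. HIF1A, the subunit found in most cells, read 4042 and 4319 in untreated cells, 8568 and 8364 without histidine and 4650.4 and 4829 without tryptophan. The histidine-depleted pair was 2.04-fold above untreated (log2 fold change 1.03 ± 0.051, adjusted p = 4.2e-15). The tryptophan-depleted pair stood only 1.13-fold above it (log2 fold change 0.17 ± 0.048, adjusted p = 0.00071), which was not called without tryptophan-depleted replicate 2 (adjusted p = 0.11). EPAS1, the second alpha subunit, also called HIF-2 alpha, read 3362 and 3615 in untreated cells, 7841 and 7849 without histidine and 9145 and 9091 without tryptophan. It rose more than 2-fold in both depletions (log2 fold changes 1.18 ± 0.052 and 1.38 ± 0.047, adjusted p = 3.3e-16 and 2.8e-59) and more without tryptophan (log2 difference −0.22 ± 0.042, adjusted p = 0.00016, and −0.36 under quantile normalization).

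Of the sensors, EGLN1, the main HIF prolyl hydroxylase, rose from 181 and 229.8 to 461 and 445 without histidine and to 291 and 286 without tryptophan (log2 fold changes 1.15 ± 0.11 and 0.49 ± 0.11, adjusted p = 1.4e-09 and 6.5e-05). The rise without tryptophan was 0.32 without untreated replicate 1. EGLN1 shares 55.8% of its exonic bases with a gene on the same strand, so its level is uncertain. EGLN3, itself a HIF target, read 503 and 584 in untreated cells, 1066 and 1003 without histidine and 603 and 627 without tryptophan. It rose without histidine (log2 fold change 0.94 ± 0.080, adjusted p = 1.1e-10). Without tryptophan its log2 fold change of 0.17 ± 0.079 (adjusted p = 0.040) became 0.07 without untreated replicate 1 and 0.28 without untreated replicate 2, and was not called without either tryptophan-depleted library (adjusted p = 0.076 and 0.25) or in edgeR and DESeq2 (adjusted p = 0.057 and 0.24). Without the intensity trend in limma, the changes of PGK1 without histidine (adjusted p = 0.12) and of ALDOC, EGLN3, ENO2, HIF1A, PFKFB3 and PKM without tryptophan (adjusted p = 0.051 to 0.20) were not called.

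**Figure D3:**
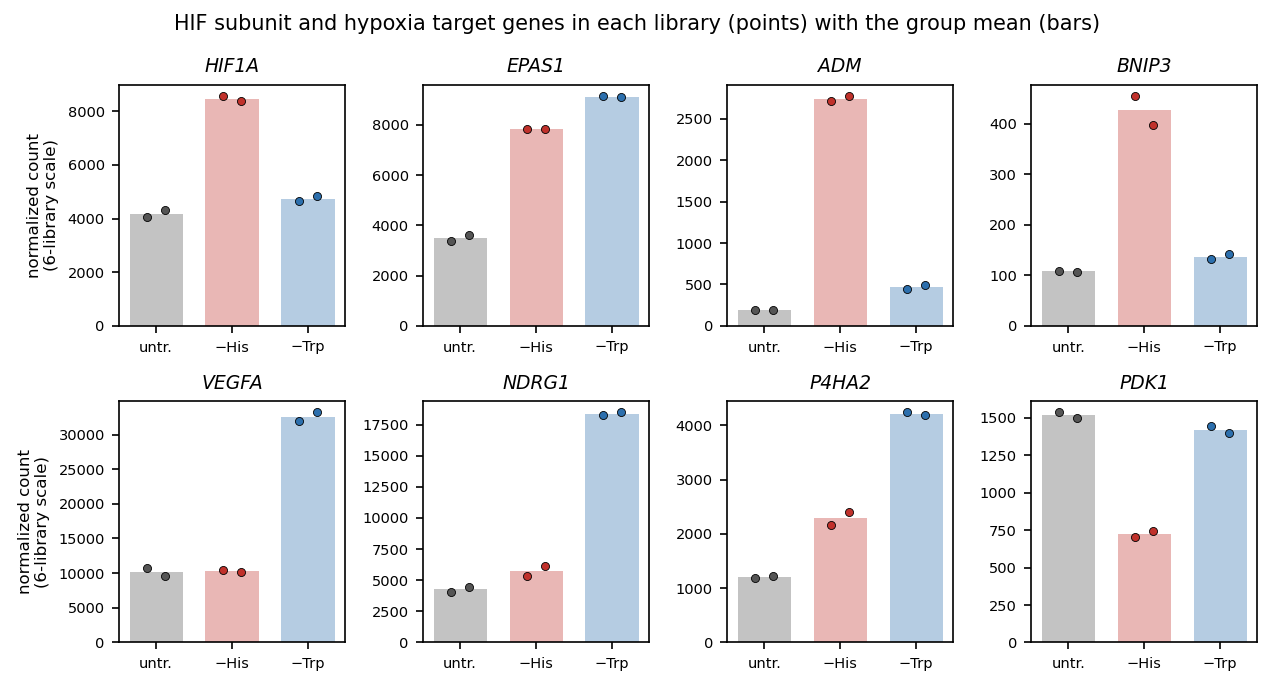
Normalized counts of 8 HIF subunit and hypoxia target genes in each library, on 1 scale for the 6 libraries; points are the 2 libraries of a group and bars their mean, from 0. HIF1A, ADM and BNIP3 are highest without histidine, EPAS1, VEGFA, NDRG1 and P4HA2 are highest without tryptophan, and PDK1 is lowest without histidine.

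Where several genes encode the same activity, levels per kilobase of exon were compared within a library to see which form dominated. Among the hexokinase genes HK1, HK2 and HKDC1, HK1 held the largest share in untreated cells, 44.4% and 43.0% of the sum, against 42.4% and 44.2% without histidine and 31.7% and 30.7% without tryptophan. HK2 held 20.2% and 19.7% of the sum in untreated cells, 54.7% and 52.1% without histidine and 18.8% and 18.9% without tryptophan. HKDC1 held 35.4% and 37.2%, then 2.98% and 3.71%, then 49.5% and 50.4%, so that HK2 stood above HKDC1 in the histidine-depleted libraries and below it in the other 4. The summed level of the 3 genes was 2455 and 2636 normalized counts per kilobase in untreated cells, 1761 and 1742 without histidine and 3434 and 3466 without tryptophan. PFKP rose from 38.8% and 39.6% of the phosphofructokinase sum to 62.2% and 62.7% without histidine, and PFKL fell from 23.1% and 23.8% to 8.79% and 9.04%. In the sum of the lactate carriers SLC16A1 and SLC16A3, which leaves out SLC16A7, SLC16A3 went from 8.51% and 9.11% to 26.5% and 26.6% without histidine and to 23.2% and 22.7% without tryptophan. That sum was 1633 and 1643 per kilobase in untreated cells, 936 and 957 without histidine and 1550 and 1606 without tryptophan. SLC16A1 itself fell 2.14-fold without histidine. EPAS1 held 37.0% and 37.2% of the sum of HIF1A and EPAS1 in untreated cells and 39.3% and 39.9% without histidine, but 58.1% and 57.1% without tryptophan. P4HA2 held 14.0% and 14.7%, then 18.8% and 20.4%, then 35.7% and 36.3% of the sum of P4HA1 and P4HA2. LDHA made up 95.5% to 98.6% and ENO1 96.3% to 98.6% of their families in every library. The LDHA share rests on the level of LDHB, which is uncertain because of the overlap given above.

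**Figure D4:**
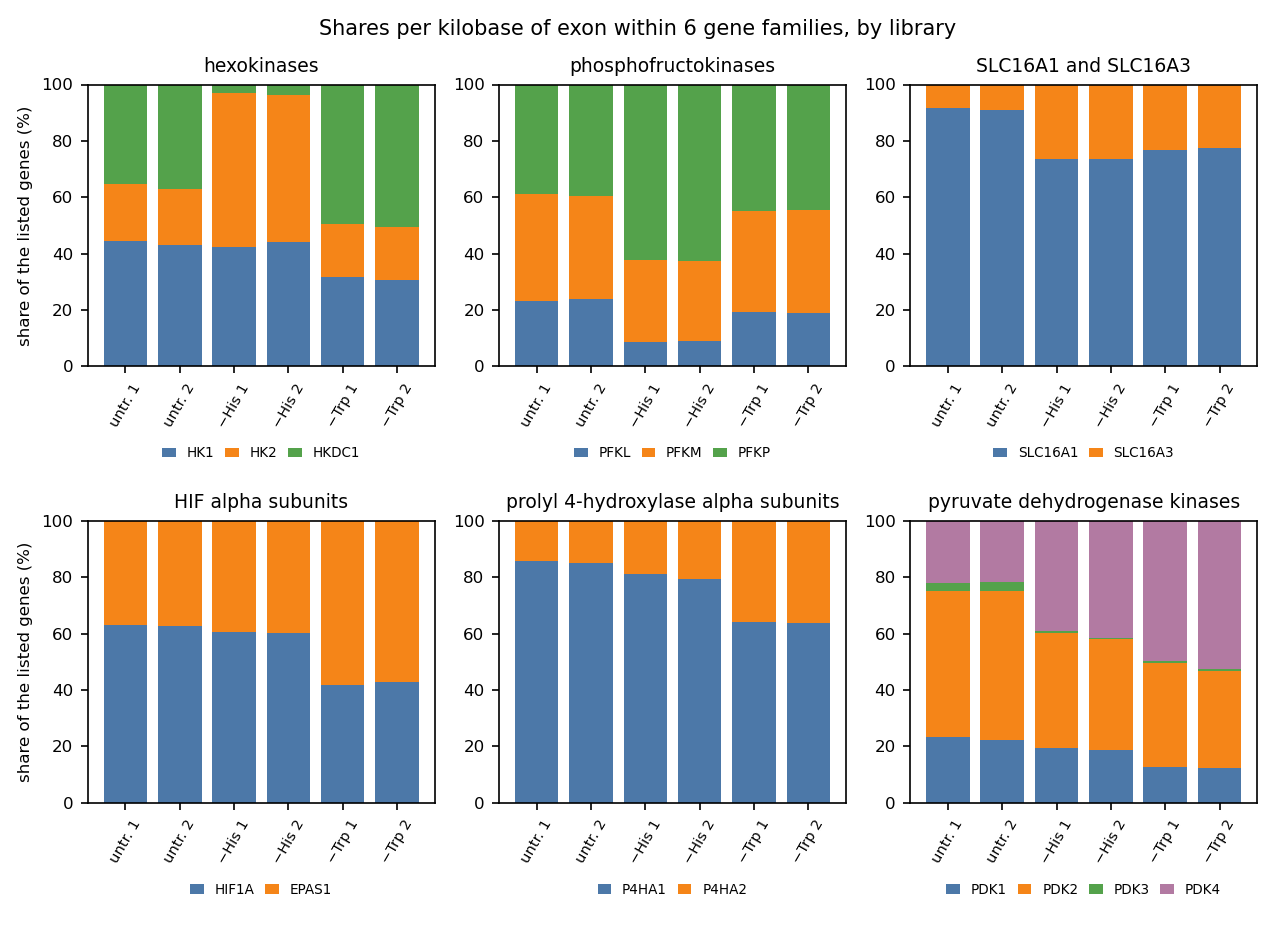
Share of each gene in the sum of the genes shown, in percent of normalized counts per kilobase of exon, for 6 families; each bar is 1 library (untreated, without histidine and without tryptophan, 2 each). HK2 passes 52% of the hexokinases and PFKP 62% of the phosphofructokinases without histidine, and EPAS1 passes 57% of its sum with HIF1A without tryptophan.

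Set against each other on all 6 libraries, 20 members were higher without histidine than without tryptophan and 12 were lower, and 3 did not pass (PFKM, ENO2 and ANKRD37). That was 57.1% and 34.3%, against 38.7% and 38.0% of the 18264 genes tested. The second share was near that of all genes, and neither difference was tested. At least 2-fold, 4 were higher and 2 were lower (11.4% and 5.71%), against 16.0% and 15.8% of all genes. The median log2 difference of the members was 0.32, against 0.011 for all genes. The 4 past 2-fold towards histidine depletion were ADM, BNIP3, ENO1 and PKM, with log2 differences of 2.54 ± 0.070, 1.63 ± 0.12, 1.10 ± 0.045 and 1.07 ± 0.045 (limma adjusted p = 1.6e-15, 1.0e-09, 2.9e-13 and 4.8e-13). The 2 past 2-fold towards tryptophan depletion were VEGFA and NDRG1. PDK1 and LDHB, both lowest without histidine, differed by −0.97 ± 0.055 and −0.92 ± 0.078 (adjusted p = 3.2e-11 and 7.0e-09). ALDOA, ENO1, PFKP and PKM were higher without histidine and lower without tryptophan than in the untreated libraries, which both comparisons share.

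Outside the members, 38 further genes of glycolysis, gluconeogenesis and pyruvate use were listed. Without histidine, 30 had enough counts, of which 10 rose and 15 fell (33.3% and 50%, against 39.1% and 38.2% of all genes), with a median log2 fold change of −0.15. Without tryptophan, 28 had enough counts, of which 13 rose and 13 fell (46.4% each, against 36.1% and 34.8% of all genes), with a median of 0.02. HKDC1, a hexokinase-like gene of epithelia, went from 3666 and 4143 to 221 and 273 without histidine, 15.7-fold lower, and to 7178 and 7378 without tryptophan, 1.86-fold higher (log2 fold changes −3.97 ± 0.083 and 0.89 ± 0.048, adjusted p = 2.9e-22 and 4.1e-38). PDK4, a fasting-induced pyruvate dehydrogenase kinase, read 437 and 451 in untreated cells, 435 and 508 without histidine and 1715 and 1813 without tryptophan, with a change without histidine that passed as higher only under quantile normalization (log2 fold change 0.32, adjusted p = 0.0061, against 0.09 ± 0.091 in limma on the deposited values). It rose without tryptophan (log2 fold change 1.98 ± 0.067, adjusted p = 5.6e-60), above its level without histidine (log2 difference −1.91 ± 0.076, adjusted p = 2.1e-13). PDK3, of the same family, fell in both (log2 fold changes −2.92 ± 0.17 and −1.53 ± 0.14). TIGAR, a phosphatase that breaks down the regulatory fructose bisphosphate, rose in both, from 369 and 300.4 to 1565 and 1556 without histidine and 568 and 624 without tryptophan. SLC16A7, a pyruvate carrier, rose 4.21-fold without histidine (adjusted p = 9.9e-13), did not pass without tryptophan (log2 fold change 0.09 ± 0.19, adjusted p = 0.71, with 0.010 and 0.16 when either tryptophan-depleted library was left out), and differed between the depletions (log2 difference 1.97 ± 0.14, adjusted p = 9.0e-10). GPD1, the cytosolic glycerol phosphate dehydrogenase, and MPC1, a subunit of the mitochondrial pyruvate carrier, fell without histidine (log2 fold changes −1.06 ± 0.11 and −0.44 ± 0.080) and rose without tryptophan (1.57 ± 0.068 and 1.09 ± 0.065). For MPC1 the fall was 0.22 on the log2 scale under quantile normalization.

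A further 32 genes known as HIF targets divided in both directions. Without histidine 15 of 29 tested rose and 9 fell (51.7% and 31.0%, against 39.1% and 38.2% of all genes), with a median log2 fold change of 0.19. Without tryptophan 19 of 28 rose and 5 fell (67.9% and 17.9%, against 36.1% and 34.8% of all genes), with a median of 0.35. CA9, the carbonic anhydrase widely used as a marker of hypoxia, fell from 3076 and 2949 to 363 and 490.4 without histidine and to 815 and 755 without tryptophan, 7.08-fold and 3.85-fold (log2 fold changes −2.82 ± 0.089 and −1.95 ± 0.057, adjusted p = 6.0e-19 and 2.5e-67). AK4, a mitochondrial adenylate kinase, fell in both (log2 fold changes −2.19 ± 0.083 and −0.78 ± 0.069). GBE1, the glycogen branching enzyme, and CITED2, a feedback inhibitor of HIF, rose in both and more without histidine (log2 differences 1.48 ± 0.074 and 1.32 ± 0.081, adjusted p = 4.7e-12 and 8.7e-11). GBE1 went from 339.9 and 385 to 1783 and 1748 without histidine and 599.7 and 663 without tryptophan, and CITED2 from 329 and 392 to 1213 and 1183 without histidine and 476 and 485 without tryptophan. DDIT4, an inhibitor of mTOR signalling that amino acid stress also induces, read 3184 and 3525 in untreated cells, 2232 and 2439 without histidine and 11098 and 11515 without tryptophan, so that it fell without histidine and rose 3.36-fold without tryptophan (log2 fold changes −0.51 ± 0.059 and 1.75 ± 0.048, adjusted p = 3.0e-08 and 5.3e-71). VLDLR, a lipoprotein receptor, rose 3.58-fold without tryptophan (adjusted p = 4.1e-52) and was lower without histidine than without tryptophan (log2 difference −1.93 ± 0.075, adjusted p = 1.4e-13), and RORA, a nuclear receptor, rose in both (log2 fold changes 1.45 ± 0.18 and 1.81 ± 0.17).

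**Figure D5:**
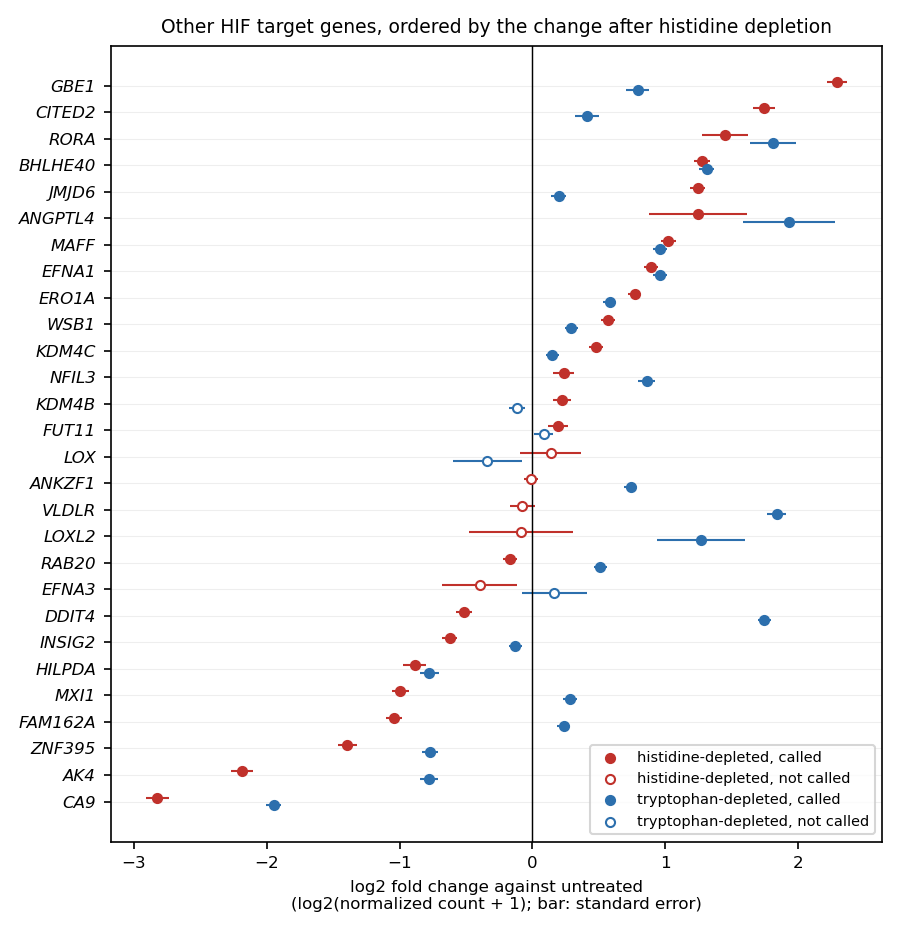
Log2 fold change against untreated of 28 HIF target genes that are not members and were tested in both depletions, ordered by the change after histidine depletion, on log2(normalized count + 1) with standard errors from limma; filled points passed the test. GBE1 is at the top (2.29 without histidine) and CA9 at the bottom (−2.82), and DDIT4 and VLDLR have their tryptophan points far to the right of their histidine points.

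Of 14 genes that regulate HIF, 12 were tested, of which 7 rose and 3 fell without histidine (58.3% and 25.0%, against 39.1% and 38.2% of all genes) and 3 rose and 4 fell without tryptophan (25.0% and 33.3%, against 36.1% and 34.8%). The median log2 fold changes were 0.37 and −0.01. RBX1, ELOC and ELOB encode the ring finger and elongin subunits of the VHL ligase. RBX1 read 1479.9 and 1584 in untreated cells, 3694 and 3734 without histidine and 844 and 781 without tryptophan, up 2.44-fold and down 1.89-fold (adjusted p = 2.4e-16 and 2.7e-29). ELOC and ELOB followed the same signs (log2 fold changes 0.92 ± 0.054 and 0.49 ± 0.056 without histidine, −0.14 ± 0.049 and −0.37 ± 0.048 without tryptophan), with the rise of ELOB at 0.29 under quantile normalization. The fall of ELOC was −0.07 and not called without untreated replicate 2 (adjusted p = 0.15), and −0.22 without untreated replicate 1 (adjusted p = 9.0e-07). It kept its size but was not called without either tryptophan-depleted library (adjusted p = 0.10 and 0.11) and in limma without the trend (adjusted p = 0.17). SIAH2, a ubiquitin ligase that targets EGLN proteins, had the reverse pattern, at 3662 and 3671 in untreated cells, 1974 and 2018 without histidine and 5412 and 5317 without tryptophan (log2 fold changes −0.87 ± 0.052 and 0.54 ± 0.047). Its relative SIAH1 and the coactivator CREBBP rose in both, SIAH1 by 0.26 ± 0.082 and 0.72 ± 0.076 and CREBBP by 1.08 ± 0.056 and 0.55 ± 0.048 on the log2 scale. The rise of SIAH1 without histidine was 0.47 under quantile normalization (adjusted p = 0.00014), and 0.25 and not called in DESeq2 (adjusted p = 0.060).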

How the data were processed

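RNA-seq libraries of HT29 cells (3 groups of 2) were analysed. Per the labels and the study's methods, polyadenylated RNA was sequenced from stranded libraries, reads were aligned with STAR 2.7.10a to GRCh38 and counted on exons of gencode v38 genes with htseq-count (HTSeq 2.0.5), and the authors divided the counts by DESeq2 size factors. The methods limit the counting to genes that code for proteins, whereas the deposited tables also hold values for other gene types, which took 2.76% of the reads. The deposited values are therefore normalized counts, a signal on a linear scale, in 1 table per depletion, each normalized separately and each holding the same untreated libraries. Use of strand, of molecular identifiers and of reads that map to several genes is not given in the sources used here.

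The smallest step between values of a library was taken as 1 read; on that scale 100% of values came out whole (tolerance 0.001), with the untreated reads identical in both tables. Levels printed were rescaled over all 6 libraries by the median of ratios, which moved depleted against untreated by −0.009 and 0.0075 on the log2 scale. Levels compared between genes were divided by exonic length.

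The members and all gene lists were chosen with earlier results of these data known. Depleted and untreated libraries were compared within a table in limma 3.58.1 (R 4.3.3), on log2(normalized count + 1) and with an intensity trend, as two-sided tests without robust weights. Genes needed a mean of at least 10 to enter, with Benjamini-Hochberg adjustment over all genes tested and a threshold of 0.05. The depletions were compared with each other in the same way on the recovered reads of all 6 libraries. An exact permutation test of 2 against 2 libraries cannot go below p = 0.333 and was not used. Libraries of a group differed by more than sampling noise (chi-square per degree of freedom 8.77, 4.03 and 1.85 over genes with at least 20 reads), so none was treated as the same library deposited again, which does not show separate cultures. All members were described. From each further list, up to 4 genes per comparison were named, those with the largest log2 change among genes that passed, had a mean of at least 100 in the higher group and groups that did not overlap. A gene originally listed among the further HIF targets was taken out of that list and its counts and is not reported here. The alternatives tried were edgeR 4.0.16 (TMM) or DESeq2 1.42.0 on the recovered reads, quantile normalization, a fit without the trend, pseudocounts of 8 or 0.5, a minimum mean of 50 or none, the replicate block, a 2-fold limit, each library left out, and other sets of libraries in the fit. The tests were run first on simulated data. Names and coordinates are from gencode 44 (60357 of 60676 identifiers matched, 319 did not), promoter windows from RefSeq.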

Additional observations from a re-analysis of the deposited data

Results flagged for a closer look

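Some genes changed in opposite directions in the 2 depletions, and the direct comparison of histidine with tryptophan depletion on all 6 libraries (limma, adjusted over all genes) passed for each of those named here. Among the members these were PFKP, with a log2 difference of 0.82 (adjusted p = 2.7e-12), ALDOA with 0.82 (adjusted p = 1e-08), ENO1 with 1.10 (adjusted p = 2.9e-13) and PKM with 1.07 (adjusted p = 4.8e-13), all higher in both histidine-depleted libraries than in either tryptophan-depleted one. The fall of PKM without tryptophan and the rise of ENO1 without histidine kept their size but were not called when certain libraries were left out, as given above. Among the further genes of glucose and pyruvate use, HKDC1 (log2 difference −4.88), GPD1 (−2.65) and MPC1 (−1.55) were lower without histidine, and so was the HIF target DDIT4 (−2.28). Of the HIF regulators, RBX1 (2.19), ELOC (1.05) and ELOB (0.84) were higher and SIAH2 (−1.43) was lower without histidine than without tryptophan. The fall of ELOC without tryptophan was not called under several of the alternatives, as given above.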

How the results depend on the processing

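The counts of members called stayed within 1.5 times their values under all alternatives but the 2-fold limit, which left 7 higher and 4 lower without histidine, 6 and 1 without tryptophan, and 4 and 2 in the direct comparison. Leaving out each library gave 18 to 21 higher and 10 to 12 lower without histidine, 11 to 14 and 12 to 16 without tryptophan, and 19 to 20 and 11 to 12 in the direct comparison. For single genes and without the 2-fold limit, 2326 results kept their direction and side of the threshold, 58 lost the call, 22 gained one and 11 changed sign. The sign changes were: under quantile normalization VEGFA (−0.23) and VLDLR (0.14) without histidine, and ANKRD37 (−0.027) and PFKM (−0.095, adjusted p = 0.024) between the depletions; in edgeR PFKM (−0.018) between the depletions; without histidine-depleted replicate 2 ALDOC (−0.026), PDK4 (−0.018) and, between the depletions, ANKRD37 (−0.12); without untreated replicate 1 ALDOC (−0.041), with values of up to 0.11 when other libraries were left out; without untreated replicate 2 VEGFA (−0.061, against 0.10 without replicate 1); without tryptophan-depleted replicate 1 PFKM (−0.015, against 0.023 without replicate 2) between the depletions. The cause of these changes was not tested. Quantile normalization also moved the differences between depletions of GPI (−0.43), EPAS1 (−0.36), PGK1 (0.25) and LDHA (0.20), and the changes of SIAH1 (0.47) and ELOB (0.29) without histidine and of ALDOA (−0.24) without tryptophan.

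With the replicate number as a block, 21 members were higher and 11 lower without histidine, 15 and 15 without tryptophan, and 20 and 12 between the depletions. Deviations of libraries with the same number correlated by 0.042, 0.0020 and −0.041, so the numbers did not pair the libraries. Among single members the block added calls for ENO2 without histidine (adjusted p = 0.026) and SLC2A1 without tryptophan (0.048) and lost that for BNIP3 without tryptophan (0.055).

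With 2 libraries a group, the small change of PKM without tryptophan kept its size and lost the call when a library was left out (log2 fold changes −0.16 and −0.17). Members with few reads (ANKRD37, PFKFB4, BNIP3) had the widest errors, and SLC2A3 had no reads counted.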
